A study of Homo sapiens with 10 samples.

Results

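The plasminogen activator system was followed in BEAS2B cells through 7 genes: the activators PLAU and PLAT, the receptor PLAUR, the inhibitors SERPINE2 and SERPINB2, and the coagulation-linked genes F3 and TFPI2. The members were taken by gene symbol from the count files. They were 7 of 52402 distinct gene symbols, each listed once, and all 7 passed the filter on low counts that left 14884 genes for testing. BEAS2B cells are a line of human bronchial epithelium, labelled as normal bronchial epithelium. Every culture was treated with Lipofectamine 2000, a lipid transfection reagent. The wild-type cells of miRcontrol received a scrambled miRNA, those of miR3124_mimic a mimic of miR-3124-5p and those of miR200b_mimic a mimic of miR-200b-3p, both labelled as overexpression. The cells of miR92b_inhibitor received an inhibitor of miR-92b, labelled as knockdown, and the 3-miRNA mixed group received both mimics and the inhibitor together. Each of the 5 groups had 2 libraries. The methods name 1 final concentration for the transfected miRNAs, but not how it was divided among the 3 in the mixture, nor is it stated whether the libraries of a group came from separate transfections. The p-values therefore measure only the spread between these libraries, which may be technical. All cells were of 1 line, and the mature miRNAs were not measured in these libraries, so the transfections were not checked here.

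Plasminogen activation turns the circulating zymogen plasminogen into plasmin, a protease that dissolves fibrin and degrades extracellular matrix. Urokinase (PLAU) works mainly at the cell surface, bound to its receptor (PLAUR), and tissue plasminogen activator (PLAT) works mainly on fibrin. Serpins such as plasminogen activator inhibitor type 2 (SERPINB2) and protease nexin 1 (SERPINE2) trap these proteases, while tissue factor (F3) binds factor VII to start coagulation and TFPI2 is a Kunitz-type inhibitor of plasmin and other serine proteases. In airway epithelium this system is known for its part in fibrin clearance, cell migration and wound repair.

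The mature miRNAs that the groups are named for are shown because their seed, bases 2 to 8, is the part that pairs with a target. The seed is in capitals, the sequences are from RefSeq on GRCh38.p14, and both arms of miR-92b are given since the labels do not say which arm the inhibitor was made against.
miR-3124-5p: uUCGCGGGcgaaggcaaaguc
miR-200b-3p: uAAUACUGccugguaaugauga
miR-92b-3p: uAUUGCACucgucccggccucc
miR-92b-5p: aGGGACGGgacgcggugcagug
The genes of these miRNAs lie on the plus strand of chromosome 1, at chr1:248826383-248826403 for miR-3124-5p, chr1:1167160-1167181 for miR-200b-3p, chr1:155195237-155195258 for miR-92b-3p and chr1:155195196-155195217 for miR-92b-5p. No 2 of these 4 sequences had the same seed.

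For each gene, the 3′UTR of its longest protein-coding transcript was searched on the transcript strand for the 7-base complement of each seed. The words were CCCGCGA for miR-3124-5p, CAGTATT for miR-200b-3p, GTGCAAT for miR-92b-3p and CCGTCCC for miR-92b-5p. None of the 4 words was found in the 3′UTR of any of the 7 members, in that transcript or in any annotated one. Over the 12259 tested genes with a 3′UTR in the annotation, the words were found in 0.62%, 19.5%, 13.1% and 4.18% of genes, in the same order. The shorter complement of bases 2 to 7 was found in 3 members. AGTATT (miR-200b-3p) was present once in SERPINE2 and at 2 positions in F3, and in 41.3% of all genes. TGCAAT (miR-92b-3p) was present once in TFPI2, and in 34.2% of all genes. The 6-base words of miR-3124-5p (CCGCGA, 2.01% of genes) and miR-92b-5p (CGTCCC, 10.2%) were in no member. The sites are shown 5′ to 3′ with the matching bases in capitals, numbered from the first base of the 3′UTR. They are shown because they are the only matches to bases 2 to 7 found in these 3′UTRs of the members. Other stretches of 6 seed bases were not searched. In F3 the match at base 637 is followed by an A, the complement of the first base of miR-200b-3p.
SERPINE2, miR-200b-3p, base 288: caaccctgttgAGTATTtgctgttt
F3, miR-200b-3p, base 88: aaacgcaaatgAGTATTtcggagca
F3, miR-200b-3p, base 637: cccaaagtgctAGTATTatgggcgt
TFPI2, miR-92b-3p, base 235: gactgaattctTGCAATgcataaga
These are matches of letters, and binding at them was not measured.

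The 7 genes lie on 7 chromosomes in GRCh38 with the GENCODE 29 annotation. PLAU spans chr10:73909177-73917497 on the plus strand, PLAT chr8:42175233-42207724 on the minus strand and PLAUR chr19:43646095-43670547 on the minus strand. SERPINE2 spans chr2:223975112-224039319 on the minus strand and SERPINB2 chr18:63871692-63903890 on the plus strand. F3 spans chr1:94529225-94541800 and TFPI2 chr7:93885396-93890991, both on the minus strand. PLAU shares 916 exon bases with C10orf55 on the opposite strand, which had at most 65 counts in a library. SERPINB2 shares 547 exon bases with SERPINB10 on the same strand (at most 2 counts). TFPI2 shares 44 with GNGT1 (0 counts) and 79 with the antisense gene AC002076.1, both on the opposite strand. The strand setting of the counting is not given in the sources used here, so reads of the pairs on opposite strands may not have been told apart. For SERPINB2 and SERPINB10 the strand cannot tell reads of the shared bases apart under any setting.

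The files held raw read counts, 13587666 to 18503890 per library, and levels are given as normalized CPM, the counts of a gene per 1000000 counts of its library, scaled by edgeR's RLE factors of 0.985 to 1.016. The label of a bronchial epithelial line was checked against marker lists, on CPM by library totals. KRT7, KRT8 and KRT18, keratins of simple epithelium, had at least 10684 counts in every library, while the basal cell markers KRT5, KRT14 and TP63 had at most 9, 1 and 2 counts. The mesenchymal gene VIM had 811 to 4260 CPM, and the adhesion genes CDH1 and EPCAM had at most 10.7 and 10.1 CPM. Summed over the 12 airway epithelial markers, of which 9 were tested, the level was 2280 to 2310 CPM in miRcontrol, 2890 to 2910 in miR3124_mimic, 2170 to 2230 in miR92b_inhibitor, 4220 to 4320 in miR200b_mimic and 4200 to 4230 in the 3-miRNA mixed group. Summed over the 6 fibroblast markers, of which 3 were tested, it was 3720 to 3870, 864 to 888, 4230 to 4270, 2960 to 3000 and 2730 to 2820 CPM in the same order, and DCN had 0 counts in every library. The 6 leukocyte markers, of which 2 were tested, summed to 27.2 to 28.7, 36.5 to 37.2, 39.9 to 42.6, 17.8 to 20.2 and 24.9 to 26.0 CPM in that order. Their sum came mostly from CD68 (231 to 743 counts) and CD14 (5 to 219), while PTPRC had at most 2 counts. The 6 endothelial markers, of which 1 was tested, summed to 0.396 to 0.537, 3.33 to 5.03, 0.347 to 0.827, 0.515 to 0.569 and 1.06 to 1.89 CPM, with 0 to 59 counts of CDH5 and at most 4 of PECAM1. The fibroblast sum came mostly from VIM, with PDGFRB and COL1A1 at most 31.2 and 36.5 CPM. All 4 sums differed between some groups, but the endothelial sums of miRcontrol, miR92b_inhibitor and miR200b_mimic overlapped. The part of these sums in the results below was not tested. Since RNA came from whole cultures, fewer cells with a transcript and less of it per cell cannot be told apart.

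All 7 members were measured well above the floor, with 109 to 8953 counts in a library. Per kilobase of merged exons, the mean level over the 10 libraries was 127 CPM per kb for F3, 102 for PLAU, 26.2 for SERPINB2, 25.3 for PLAUR, 15.0 for PLAT, 4.80 for TFPI2 and 4.33 for SERPINE2. F3 and PLAU were thus the most abundant transcripts of the system per length. With the length of the longest transcript in place of merged exons, PLAUR (70.0) ranked above SERPINB2 (33.4) and SERPINE2 (6.43) above TFPI2 (5.27), so the order within these pairs depends on the gene length used. In miRcontrol alone, F3 stood at 134 CPM per kb of merged exons and PLAU at 58.3. Without scaling to length, 2.67% of the 14884 tested genes had a higher mean CPM than F3, 3.5% than PLAU and 58.8% than TFPI2.

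**Figure D1:**
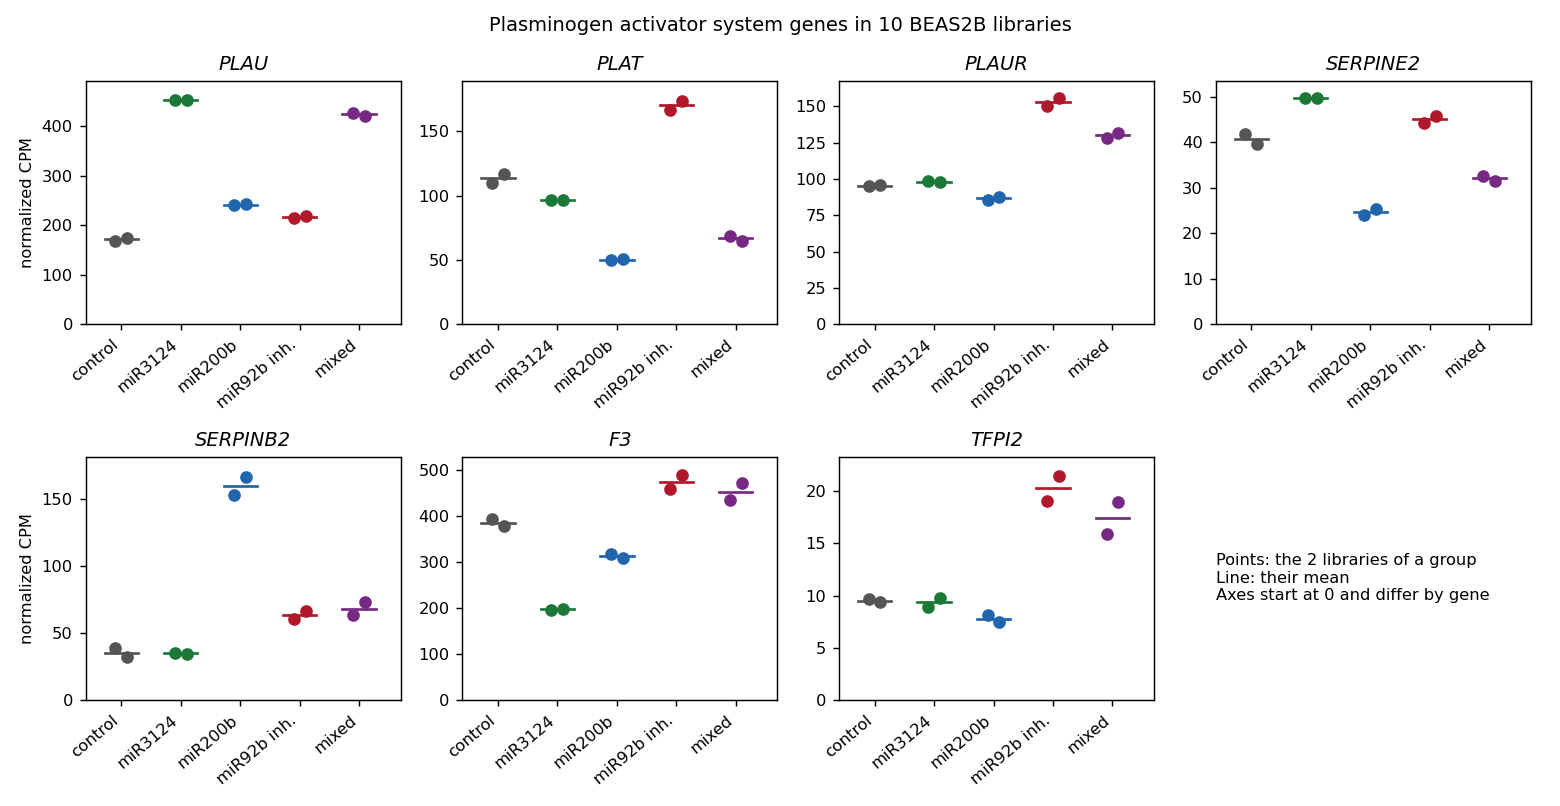
Normalized CPM (vertical axis, starting at 0 and scaled per gene) of the 7 genes in the 5 groups; points are the 2 libraries of a group and lines their mean. PLAU is high in miR3124_mimic (453 ± 0.46) and the mixed group (424 ± 4.11), SERPINB2 in miR200b_mimic (159 ± 8.75), and PLAUR and TFPI2 in miR92b_inhibitor (153 ± 3.89 and 20.3 ± 1.72; SD, n = 2).

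PLAU, the urokinase gene, was higher in all 4 other groups than in miRcontrol. Its 2 libraries stood at 169 and 175 CPM in miRcontrol, 453 and 454 in miR3124_mimic, 215 and 218 in miR92b_inhibitor, 240 and 242 in miR200b_mimic, and 427 and 421 in the 3-miRNA mixed group. The libraries of miR3124_mimic and the mixed group stood far above those of the other 3 groups. The log2 fold change against miRcontrol was 1.40 ± 0.0378 (SE) in miR3124_mimic, a 2.63-fold rise (edgeR quasi-likelihood test, Benjamini-Hochberg adjusted p = 2.3e-32). It was 1.30 ± 0.0377 in the mixed group (2.46-fold, adjusted p = 6.67e-31). The rises in miR200b_mimic (1.40-fold, adjusted p = 1.52e-14) and miR92b_inhibitor (1.26-fold, adjusted p = 2.93e-09) were smaller. From lowest to highest the groups ran miRcontrol, miR92b_inhibitor, miR200b_mimic, mixed and miR3124_mimic. Each neighbour differed from the next, but the last step was small, at 0.10 on the log2 scale (adjusted p = 0.0196), and with edgeR's TMM normalization it no longer passed (adjusted p = 0.0556). It did not pass either when any 1 library of miR3124_mimic or of the mixed group was left out, with adjusted p-values of 0.0836 and 0.0975 without replicates 1 and 2 of miR3124_mimic and 0.0633 and 0.133 without those of the mixed group.

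PLAT, the gene of the second activator, moved in the opposite direction to PLAU in 3 of the 4 groups. The libraries stood at 110 and 117 CPM in miRcontrol, 96.8 and 96.6 in miR3124_mimic, 167 and 174 in miR92b_inhibitor, 49.7 and 50.7 in miR200b_mimic, and 68.8 and 65.0 in the mixed group. Both libraries of miR92b_inhibitor were above all others. PLAT fell by 1.17 ± 0.0538 (SE) on the log2 scale in miR200b_mimic, a 2.25-fold fall (edgeR, adjusted p = 2.67e-23). It fell by 0.76 ± 0.05 in the mixed group (adjusted p = 1.54e-17) and by 0.23 ± 0.0484 in miR3124_mimic (adjusted p = 9.08e-05). In miR92b_inhibitor it rose by 0.59 ± 0.0451 (adjusted p = 7.67e-15), beside the smaller rise of PLAU there. In the order miR200b_mimic, mixed, miR3124_mimic, miRcontrol and miR92b_inhibitor, each group differed from the next, with adjusted p-values of at most 9.08e-05.

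PLAUR encodes the membrane-anchored receptor that holds urokinase at the cell surface. Its levels were 95.0 and 95.6 CPM in miRcontrol, 98.3 and 98.1 in miR3124_mimic, 150 and 156 in miR92b_inhibitor, 85.7 and 87.6 in miR200b_mimic, and 128 and 132 in the mixed group. The levels of miRcontrol and of the groups given a single mimic lay within a narrow range, and the groups given the miR-92b inhibitor stood above them. PLAUR rose by 0.68 ± 0.0446 (SE, log2) in miR92b_inhibitor, 1.61-fold (edgeR, adjusted p = 4.81e-17), and by 0.45 ± 0.0452 in the mixed group, 1.37-fold (adjusted p = 1.03e-11). In miR3124_mimic, where PLAU had its largest rise, the log2 fold change of PLAUR was 0.04, with a 95% interval of -0.05 to 0.14 (adjusted p = 0.463). In miR200b_mimic it was -0.14 (adjusted p = 0.0213). That last call was lost with the DESeq2 Wald test (adjusted p = 0.0618), without a filter on low counts (adjusted p = 0.0542) and when a library of either group was left out. Without replicates 1 and 2 of miRcontrol the adjusted p was 0.0765 and 0.0933, and without those of miR200b_mimic 0.106 and 0.0529. In rising order the groups were miR200b_mimic, miRcontrol, miR3124_mimic, mixed and miR92b_inhibitor, and of these neighbours miRcontrol and miR3124_mimic did not differ by the test.

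SERPINE2 encodes protease nexin 1, a secreted inhibitor of thrombin and urokinase. The libraries stood at 41.8 and 39.7 CPM in miRcontrol, 49.7 in both of miR3124_mimic, 44.3 and 45.9 in miR92b_inhibitor, 24.1 and 25.4 in miR200b_mimic, and 32.7 and 31.6 in the mixed group. The 2 groups that had received the miR-200b-3p mimic were the lowest. SERPINE2 fell by 0.72 ± 0.0742 (SE, log2) in miR200b_mimic, 1.64-fold (edgeR, adjusted p = 3.09e-11), and by 0.34 ± 0.0687 in the mixed group, 1.27-fold (adjusted p = 5.26e-05). It rose by 0.29 ± 0.0656 in miR3124_mimic (adjusted p = 0.000255). The difference in miR92b_inhibitor was 0.15, with a 95% interval of 0.01 to 0.28 and an adjusted p of 0.0809. Between miRcontrol and miR92b_inhibitor, and between miR92b_inhibitor and miR3124_mimic (adjusted p = 0.0568), neighbours in the order of levels did not differ by the test. SERPINE2 and F3 are the 2 members whose 3′UTR holds the 6-base miR-200b-3p match shown above, a word found in 41.3% of all genes. In miR200b_mimic F3 fell by 0.30, and PLAT, which holds no such match, fell by 1.17. Whether the match has a part in the fall of SERPINE2 was not tested.

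SERPINB2, the gene of plasminogen activator inhibitor type 2, a mostly intracellular serpin, had the largest change among the members. Its levels were 38.4 and 31.6 CPM in miRcontrol, 35.2 and 34.0 in miR3124_mimic, 60.0 and 66.0 in miR92b_inhibitor, 153 and 166 in miR200b_mimic, and 62.9 and 73.0 in the mixed group. The miR200b_mimic libraries lay far above the rest. The libraries of miRcontrol and miR3124_mimic overlapped, as did those of miR92b_inhibitor and the mixed group. SERPINB2 rose by 2.19 ± 0.0665 (SE, log2) in miR200b_mimic, 4.55-fold (edgeR, adjusted p = 2.69e-30). It rose by 0.96 ± 0.0721 in the mixed group (1.94-fold, adjusted p = 1.74e-15) and by 0.85 ± 0.0732 in miR92b_inhibitor (1.80-fold, adjusted p = 4.24e-13). In miR3124_mimic the log2 fold change was -0.02, with a 95% interval of -0.18 to 0.15 (adjusted p = 0.865). SERPINB2 also had the widest spread within a group, a ratio of 1.22 between the miRcontrol libraries, against a ratio of 4.60 between the highest and lowest group means. The 2 inhibitors thus moved in opposite directions in miR200b_mimic and in the mixed group.

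F3 encodes tissue factor, the membrane receptor of factor VII that starts the extrinsic pathway of coagulation. The libraries stood at 395 and 378 CPM in miRcontrol, 196 and 198 in miR3124_mimic, 460 and 490 in miR92b_inhibitor, 317 and 309 in miR200b_mimic, and 435 and 473 in the mixed group. The miR3124_mimic libraries were the lowest, and those of miR92b_inhibitor and the mixed group overlapped. F3 fell by 0.97 ± 0.0418 (SE, log2) in miR3124_mimic, 1.96-fold (edgeR, adjusted p = 1.23e-24), just short of a fold change of 2. Without replicate 2 of miRcontrol the value was -1.01, past that limit. It fell by 0.30 ± 0.0404 in miR200b_mimic (adjusted p = 1.91e-08), rose by 0.30 ± 0.0392 in miR92b_inhibitor (adjusted p = 3.05e-08) and rose by 0.23 ± 0.0392 in the mixed group (adjusted p = 2.87e-06). The rising order was miR3124_mimic, miR200b_mimic, miRcontrol, mixed and miR92b_inhibitor, and the last 2 did not differ by the test (adjusted p = 0.18). F3 was the member that fell in each of the groups given a single mimic and rose in the group given both mimics and the inhibitor.

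TFPI2, the gene of a matrix-bound protease inhibitor, had the lowest counts of the 7. Its levels were 9.62 and 9.37 CPM in miRcontrol, 8.88 and 9.79 in miR3124_mimic, 19.1 and 21.5 in miR92b_inhibitor, 8.15 and 7.42 in miR200b_mimic, and 15.9 and 19.0 in the mixed group. The 4 libraries that had received the miR-92b inhibitor were above the other 6, and miRcontrol and miR3124_mimic overlapped. TFPI2 rose by 1.10 ± 0.114 (SE, log2) in miR92b_inhibitor, 2.14-fold (edgeR, adjusted p = 9.02e-11), and by 0.88 ± 0.116 in the mixed group, 1.84-fold (adjusted p = 1.68e-08). The log2 fold change was -0.02 in miR3124_mimic (95% interval -0.29 to 0.25, adjusted p = 0.914) and -0.29 in miR200b_mimic (95% interval -0.57 to -0.01, adjusted p = 0.0878). Neighbours in the order miR200b_mimic, miR3124_mimic, miRcontrol, mixed and miR92b_inhibitor differed by the test at 1 step only, between miRcontrol and the mixed group. TFPI2 is the member whose 3′UTR holds the 6-base miR-92b-3p match shown above, a word found in 34.2% of all genes. PLAT, PLAUR and SERPINB2 also rose in miR92b_inhibitor and hold no such match. Whether the match has a part in the rise of TFPI2 was not tested.

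**Figure D2:**
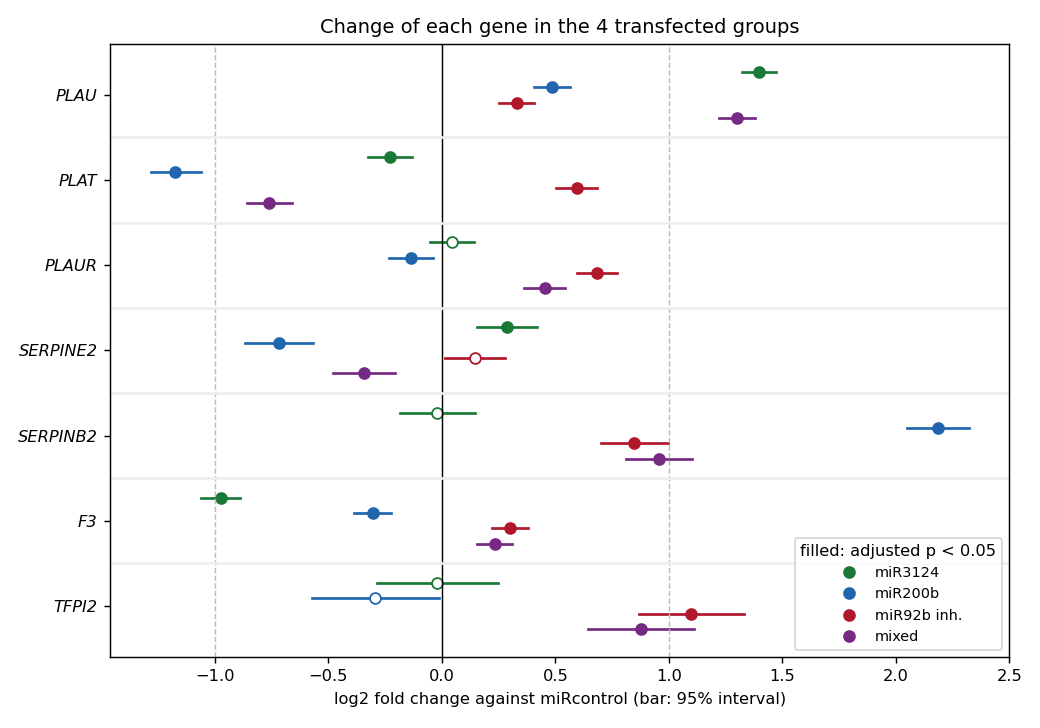
Log2 fold change against miRcontrol (horizontal axis) of each gene in the other 4 groups, with 95% intervals as bars. Filled points have an adjusted p under 0.05 and dashed lines mark a fold change of 2 either way. All 7 points of miR92b_inhibitor lie to the right of 0, from 0.15 (SERPINE2, open) to 1.10 (TFPI2), while those of miR200b_mimic run from -1.17 (PLAT) to 2.19 (SERPINB2).

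Read by group, the question was how many members differed from miRcontrol, and the answer was set beside the share of all 14884 genes that passed the same test. The 4 comparisons share the 2 miRcontrol libraries, so they are not independent of each other. In miR3124_mimic, 4 of 7 members passed an adjusted p of 0.05, where 51.0% of all genes did: PLAU and SERPINE2 were higher, PLAT and F3 lower. With a fold change of at least 2 as well, 1 member (PLAU) passed, against 8.13% of all genes, and 2 passed without replicate 2 of miRcontrol, when F3 joined. In miR200b_mimic, 6 members passed (40.6% of all genes), with PLAU and SERPINB2 higher and PLAT, PLAUR, SERPINE2 and F3 lower. At a fold change of 2 there were 2, SERPINB2 and PLAT (4.88%).

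In miR92b_inhibitor, 6 members passed and every one of them was higher (35.7% of all genes passed in either direction), the exception among the members being SERPINE2. TFPI2 alone passed a fold change of 2 (1.91%). The median log2 fold change of the 7 members was 0.59 there, where the median of all genes was -0.01. In the 3-miRNA mixed group all 7 members passed (42.7%), 5 higher and 2 lower, with a median of 0.45 against 0.00 for all genes, and PLAT and SERPINE2 were the 2 that fell. At a fold change of 2, PLAU alone passed (4.67%). Without replicate 1 of miRcontrol SERPINB2 also passed, at 1.11, and without replicate 1 of the mixed group both SERPINB2 (1.06) and TFPI2 did, for 3 members. The medians in miR3124_mimic and miR200b_mimic were -0.02 and -0.29, against 0.00 and -0.01 for all genes.

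The mixed group was next compared with each single transfection, to see which single group it was closest to for each gene. Against miR3124_mimic all 7 members differed (49.1% of all genes), 4 higher and 3 lower. F3 was the 1 member past a fold change of 2 (6.28%), at 1.20 ± 0.0414 (SE, log2; edgeR, adjusted p = 5.55e-28). That number was 2 without replicate 1 of miR3124_mimic, when SERPINB2 joined, and 3 without replicate 1 of the mixed group, when SERPINB2 and TFPI2 did. Against miR200b_mimic all 7 differed too (38.6%), 6 of them higher. SERPINB2 was lower by more than a fold of 2, at -1.23 ± 0.0596 (adjusted p = 5.76e-22), and TFPI2 higher, at 1.17 ± 0.124 (adjusted p = 8.17e-11), where 3.44% of all genes passed that criterion.

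Against miR92b_inhibitor, 4 members differed (39.6%): PLAU was higher, and PLAT, PLAUR and SERPINE2 were lower. PLAT was past a fold change of 2 (4.17%), at -1.35 ± 0.0478 (adjusted p = 1.72e-27). The other 3 did not pass: the difference was 0.11 for SERPINB2 (95% interval -0.02 to 0.24, adjusted p = 0.2), -0.07 for F3 (-0.14 to 0.01, adjusted p = 0.18) and -0.22 for TFPI2 (-0.42 to -0.01, adjusted p = 0.0857). In each of these 3 the outcome of the test depended on 1 library. SERPINB2 passed without replicate 1 of the mixed group (0.21, adjusted p = 0.0272), and F3 (-0.13, adjusted p = 0.0262) and TFPI2 (-0.35, adjusted p = 0.0259) passed without its replicate 2. Among the pairs of single groups, 57.8% of all genes differed between miR200b_mimic and miR3124_mimic, 58.8% between miR92b_inhibitor and miR3124_mimic and 50.5% between miR92b_inhibitor and miR200b_mimic. Over all 10 pairs of groups and 7 members, 60 of 70 comparisons passed, from 6 of 10 for TFPI2 to 10 of 10 for PLAU and PLAT. The share of all genes that passed in a pair ran from 35.7% (miR92b_inhibitor against miRcontrol) to 58.8%. The 10 pairs reuse the same 5 groups, so these comparisons are not independent of each other.

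The mixture held all 3 molecules, and its effect was set against the sum of the 3 single effects on the log2 scale. For PLAT, PLAUR, SERPINE2 and TFPI2 the observed value lay near the sum. PLAT changed by -0.76 against a sum of -0.81, PLAUR by 0.45 against 0.59, SERPINE2 by -0.34 against -0.28, and TFPI2 by 0.88 against 0.78. The departures from the sum were 0.05 (95% interval -0.15 to 0.25), -0.14 (-0.33 to 0.05), -0.06 (-0.34 to 0.22) and 0.10 (-0.41 to 0.60), in the same order, with adjusted p-values of 0.804, 0.326, 0.832 and 0.85. These intervals are wide for TFPI2, the gene with the fewest counts.

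The other 3 members departed from the sum (21.7% of all genes did, in either direction). PLAU rose by 1.30 where the single effects sum to 2.21, a departure of -0.91 ± 0.0772 (SE; edgeR, adjusted p = 5.13e-13). SERPINB2 rose by 0.96 where they sum to 3.02, a departure of -2.06 ± 0.148 (adjusted p = 2.86e-15), which as folds is 1.94 against 8.09. F3 rose by 0.23 where they sum to -0.98, a departure of 1.21 ± 0.0797 in the upward direction (adjusted p = 1.73e-16), so that its sign was opposite to that of the sum. SERPINB2 and F3 departed by a fold of at least 2, which 3.07% of all genes did. Since the share of each molecule in the mixture is not given, a smaller amount of a molecule and a joint effect of the 3 cannot be told apart.

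**Figure D3:**
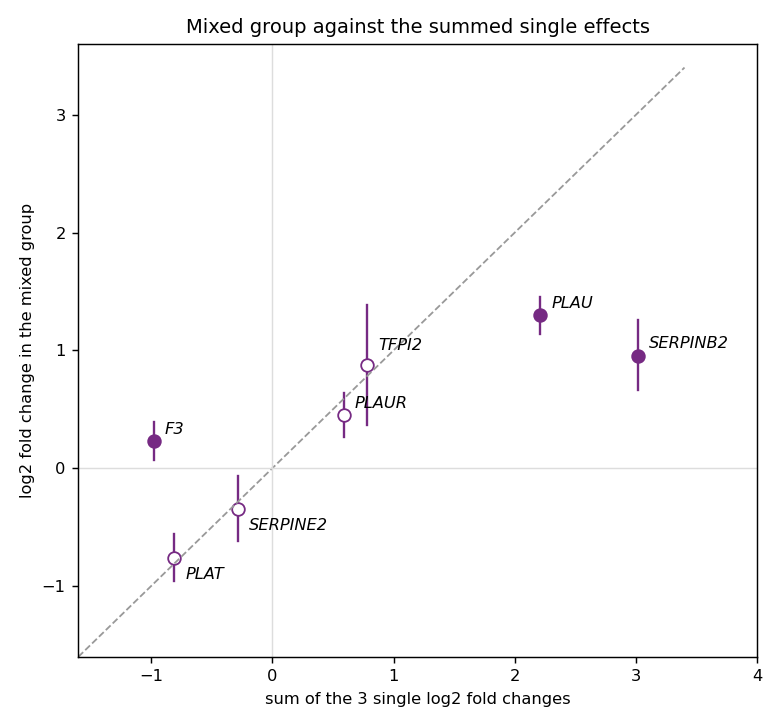
Log2 fold change of each gene in the 3-miRNA mixed group (vertical axis) against the sum of its log2 fold changes in the 3 single groups (horizontal axis); the dashed line marks equality, bars are the 95% interval of the departure and filled points departed with an adjusted p under 0.05. SERPINB2 (3.02, 0.96) and PLAU (2.21, 1.30) lie under the line, F3 (-0.98, 0.23) lies above it, and the other 4 lie close to it.

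Ratios of raw counts within a library need no scaling between libraries. The ratio of PLAU to PLAT reads was 1.52 ± 0.0328 in miRcontrol, 4.69 ± 0.00928 in miR3124_mimic, 1.27 ± 0.0245 in miR92b_inhibitor, 4.81 ± 0.0362 in miR200b_mimic and 6.34 ± 0.192 in the mixed group (mean ± SD, n = 2). Both mimics gave a similar ratio, with the larger of the 2 changes in PLAU in miR3124_mimic and in PLAT in miR200b_mimic. The ratio of SERPINB2 to SERPINE2 reads was 0.857 ± 0.0866 in miRcontrol, 0.696 ± 0.0177 in miR3124_mimic, 1.40 ± 0.059 in miR92b_inhibitor, 6.43 ± 0.105 in miR200b_mimic and 2.12 ± 0.275 in the mixed group. SERPINB2 went from fewer reads than SERPINE2 in miRcontrol to several times as many in miR200b_mimic. The ratio of F3 to TFPI2 reads was 40.7 ± 0.571 in miRcontrol and 40.3 ± 1.99 in miR200b_mimic, and 21.1 ± 1.30, 23.5 ± 0.953 and 26.1 ± 1.68 in miR3124_mimic, miR92b_inhibitor and the mixed group. In miR3124_mimic the lower ratio came with a lower F3, and in the other 2 groups with a higher TFPI2. Gene length cancels in comparisons of 1 ratio between groups, but the ratios are not ratios of molecules.

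**Figure D4:**
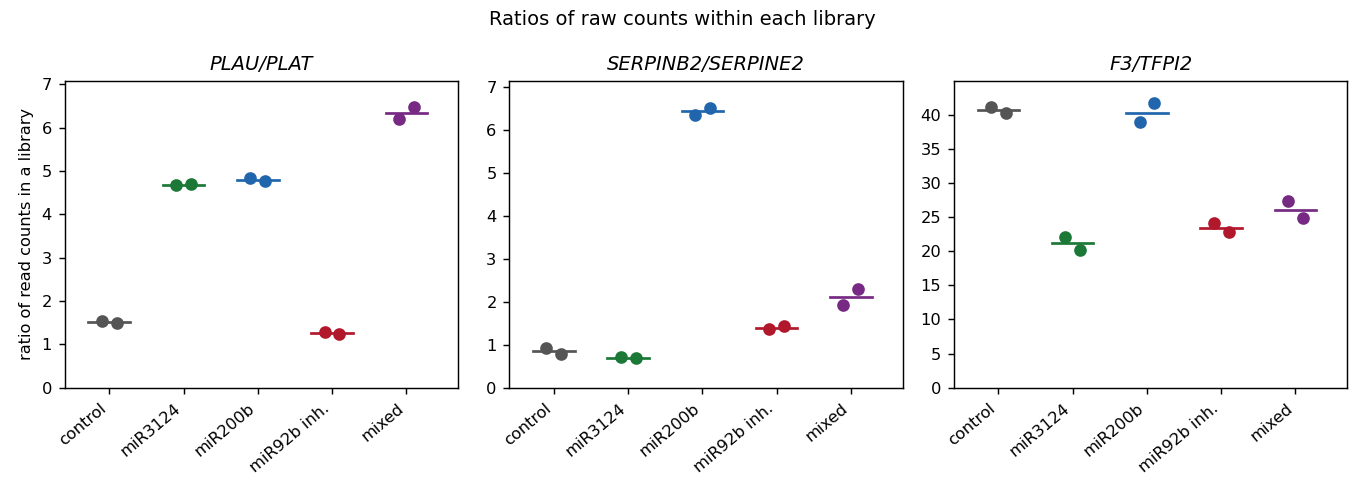
Ratio of raw read counts of PLAU to PLAT, SERPINB2 to SERPINE2 and F3 to TFPI2 in each library (vertical axes, starting at 0) for the 5 groups; points are libraries and lines the mean of 2. The PLAU to PLAT ratio is highest in the mixed group (6.34), the SERPINB2 to SERPINE2 ratio in miR200b_mimic (6.43), and the F3 to TFPI2 ratio in miRcontrol (40.7) and miR200b_mimic (40.3).

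Over the 10 libraries, which are 5 groups of 2 and share their group effects, the members did not follow 1 pattern. PLAUR and TFPI2 were the most alike, with a Pearson r of 0.984 on log2 CPM, and both were high in the groups given the miR-92b inhibitor. PLAT and SERPINE2 had an r of 0.833, and SERPINE2 and SERPINB2 an r of -0.861. PLAU had an r between -0.456 (F3) and 0.102 (TFPI2) with the other members, so that the urokinase gene and its receptor gene (r = 0.0893) did not move together. Among 12899 genes with a mean of at least 1 CPM, the 3 most like PLAU were MT1E (0.9939), DTX4 (0.9924) and PWAR5 (0.9828). Those most like PLAT were C11orf95 (0.9865), HMOX1 (0.9804) and PTPN14 (0.9804), and those most like PLAUR were FAM167A (0.9887), MIS12 (0.9876) and TFPI2 (0.9839). MT1E is a metallothionein gene and HMOX1 the heme oxygenase gene. SERPINE2 was most like OSTM1 (0.9876), SWAP70 (0.9833) and LAMP2 (0.9824), and SERPINB2 most like CDV3 (0.985), RALA (0.9845) and BTBD10 (0.9822). F3 was most like LINC00452 (0.9856), CTPS1 (0.9844) and DCUN1D5 (0.9812), and TFPI2 most like PLAUR (0.9839), PSMD12 (0.9786) and TATDN1 (0.9762). With 5 groups many genes reach such values, and they are given as a description.

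Because PLAUR and TFPI2 moved together and F3 was high in the same 2 groups, their RefSeq promoters on GRCh38.p14, 250 bases before to 50 after the start, are shown on the gene's strand. The capitals mark TGAGTCA, a site letter pattern of the AP-1 factors, searched on both strands (TGACTCA on the other).
PLAUR: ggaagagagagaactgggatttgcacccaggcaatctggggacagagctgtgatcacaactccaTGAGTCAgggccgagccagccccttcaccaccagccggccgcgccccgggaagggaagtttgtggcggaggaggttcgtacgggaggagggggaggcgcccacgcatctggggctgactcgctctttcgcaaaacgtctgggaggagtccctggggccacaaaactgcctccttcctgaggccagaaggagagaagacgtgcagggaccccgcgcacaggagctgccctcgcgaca
F3: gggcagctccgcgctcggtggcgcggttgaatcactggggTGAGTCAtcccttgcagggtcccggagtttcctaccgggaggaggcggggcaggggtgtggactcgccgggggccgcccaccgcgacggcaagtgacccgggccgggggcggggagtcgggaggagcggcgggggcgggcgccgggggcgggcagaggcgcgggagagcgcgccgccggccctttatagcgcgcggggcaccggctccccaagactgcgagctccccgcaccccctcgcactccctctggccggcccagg
TFPI2: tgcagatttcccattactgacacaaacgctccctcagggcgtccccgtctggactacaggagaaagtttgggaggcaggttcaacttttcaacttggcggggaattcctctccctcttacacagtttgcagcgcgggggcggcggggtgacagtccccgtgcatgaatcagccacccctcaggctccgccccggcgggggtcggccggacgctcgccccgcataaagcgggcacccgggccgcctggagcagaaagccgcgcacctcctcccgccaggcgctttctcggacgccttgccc
The windows are chr19:43670120-43670419 for PLAUR, chr1:94541710-94542009 for F3 and chr7:93890704-93891003 for TFPI2, all on the minus strand. PLAUR holds the pattern at -186 and F3 at -210 from the start, TFPI2 does not hold it, and 3.7% of 15154 promoter windows of tested genes do. The pattern TATAAA or its complement TTTATA was found at -28 in F3 and at -30 in SERPINB2, and in 6.32% of promoters. The promoter windows of PLAU, SERPINE2 and SERPINB2 held no TGAGTCA or TGACTCA. PLAT had no entry among the promoter sequences and was not searched. The words CAGGTG or CACCTG (E-box) were found in PLAU alone of the members searched, and in 18.6% of promoters. GGGCGG or CCGCCC (Sp1) was found in PLAU, SERPINE2, F3 and TFPI2, and in 65.1% of promoters. Binding was not measured in these libraries.

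The other genes of plasminogen activation and of the tissue factor pathway were described from a list of 39 genes, of which 21 passed the filter. Plasminogen itself (PLG) had at most 1 count in a library, and F7, whose product binds tissue factor, had 0, so the substrate and the ligand of these pathways lay under the floor of 3 counts at this depth. In miR3124_mimic, 9 of the 21 rose and 5 fell (51.0% of all genes passed in either direction), with a median log2 fold change of 0.19 against 0.00 for all genes. In miR200b_mimic, 7 rose and 9 fell, where 40.6% of all genes passed, with a median of -0.10. In miR92b_inhibitor, 3 rose and 7 fell (35.7% of all genes), and without replicate 2 of that group 6 passed in place of 10. In the mixed group, 5 rose and 8 fell (42.7%), with a median of -0.13. The list did not move in 1 direction in any group, and the 6 members called in miR92b_inhibitor rose while most called genes of the list fell.

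ANXA2 and S100A10 encode the cell surface complex that binds plasminogen and its tissue activator. ANXA2 differed by at most 0.16 on the log2 scale in any group, with changes of -0.11, -0.15 and -0.16 in miR3124_mimic, miR200b_mimic and the mixed group (adjusted p = 0.0067, 0.000201 and 7.41e-05) and 0.02 in miR92b_inhibitor (adjusted p = 0.761). S100A10 rose by 0.21 in miR200b_mimic and fell by 0.27 in miR3124_mimic, by 0.48 in miR92b_inhibitor and by 0.22 in the mixed group, with adjusted p-values of at most 1.29e-05. LRP1, the endocytic receptor that clears protease-inhibitor complexes, went from 335 ± 6.91 CPM in miRcontrol to 161 ± 5.77 in miR200b_mimic, a fall of 1.06 ± 0.042 (adjusted p = 1.08e-25). It rose by 0.62 ± 0.0385 to 516 ± 13.1 CPM in miR3124_mimic (adjusted p = 9.79e-19), and fell by 0.49 in miR92b_inhibitor and by 0.39 in the mixed group (adjusted p = 8.05e-14 and 2.08e-11). VTN, the gene of vitronectin, a matrix ligand of the urokinase receptor, had 14 and 10 counts in miRcontrol and 27 and 44 in miR3124_mimic, a rise of 1.63 ± 0.396 (adjusted p = 0.000525).

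ST14 encodes matriptase, a membrane protease able to activate the urokinase precursor. It had 7 and 5 counts in miRcontrol, 91 and 137 in miR200b_mimic and 45 and 61 in the mixed group, rises of 4.37 ± 0.335 (edgeR, adjusted p = 3.03e-15) and 3.02 ± 0.381 (adjusted p = 5.81e-09). The epithelial marker sum was highest in the same 2 groups, as given above. On the coagulation side, TFPI, the main inhibitor of the tissue factor complex, rose by 0.82 ± 0.0421 in miR3124_mimic (adjusted p = 8.66e-22), where F3 fell. It fell by 0.68 ± 0.0467 in miR200b_mimic (adjusted p = 5.51e-17), and its log2 fold changes of 0.03 in miR92b_inhibitor and 0.02 in the mixed group did not pass (adjusted p = 0.674 and 0.753).

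F2RL1 encodes protease-activated receptor 2, which the tissue factor complex cleaves. It went from 22.6 ± 1.41 CPM in miRcontrol to 67.7 ± 2.18 in miR200b_mimic and 65.4 ± 0.296 in the mixed group, rises of 1.58 ± 0.0712 and 1.54 ± 0.07 (edgeR, adjusted p = 1.32e-23 and 2.19e-23). It also rose by 0.90 in miR3124_mimic (adjusted p = 3.45e-14) and fell by 0.32 in miR92b_inhibitor (adjusted p = 0.00306). F2RL2, a thrombin receptor gene, had 3.79 ± 0.301 CPM in miRcontrol, rose to 12.9 ± 0.0533 in miR3124_mimic (1.77 ± 0.162, adjusted p = 5.22e-13) and fell to 0.825 ± 0.216 in miR200b_mimic (-2.16 ± 0.279, adjusted p = 1.05e-08). SERPIND1, the gene of the thrombin inhibitor heparin cofactor, had 1 and 2 counts in miRcontrol and 6 and 11 in miR3124_mimic. It was at least 2.94-fold higher there against a floor of 3 counts per control library (adjusted p = 0.0259). That call was lost with the DESeq2 Wald test (adjusted p = 0.113), without replicates 1 and 2 of miRcontrol (0.166 and 0.07) and without replicate 2 of miR3124_mimic (0.169).

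The same 7-base words were searched in the 3′UTRs of the 21 listed genes. CAGTATT of miR-200b-3p was in 5 of the 21 (19.5% of all genes), namely LRP1, LRPAP1, VLDLR, TFPI and F2RL2. LRPAP1, the chaperone of LRP1, and VLDLR, a related receptor, are named here after their values were seen. In miR200b_mimic, LRPAP1 fell by 0.32 ± 0.0658 and VLDLR by 0.57 ± 0.0854 (edgeR, adjusted p = 6.45e-05 and 3.39e-07). All 5 were thus lower there by the test, with the values of LRP1, TFPI and F2RL2 given above. In that group 9 of the 21 listed genes fell, and 40.6% of all genes passed in either direction. How many of all genes with the word fell was not counted. GTGCAAT of miR-92b-3p was found in LRPAP1 and TFPI (13.1% of all genes). In miR92b_inhibitor LRPAP1 fell by 0.27 ± 0.064 (edgeR, adjusted p = 0.000728), and the log2 fold change of TFPI, 0.03, did not pass (adjusted p = 0.674). The words CCCGCGA and CCGTCCC were in none of the 21. These too are matches of letters, with no binding measured.

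**Figure D5:**
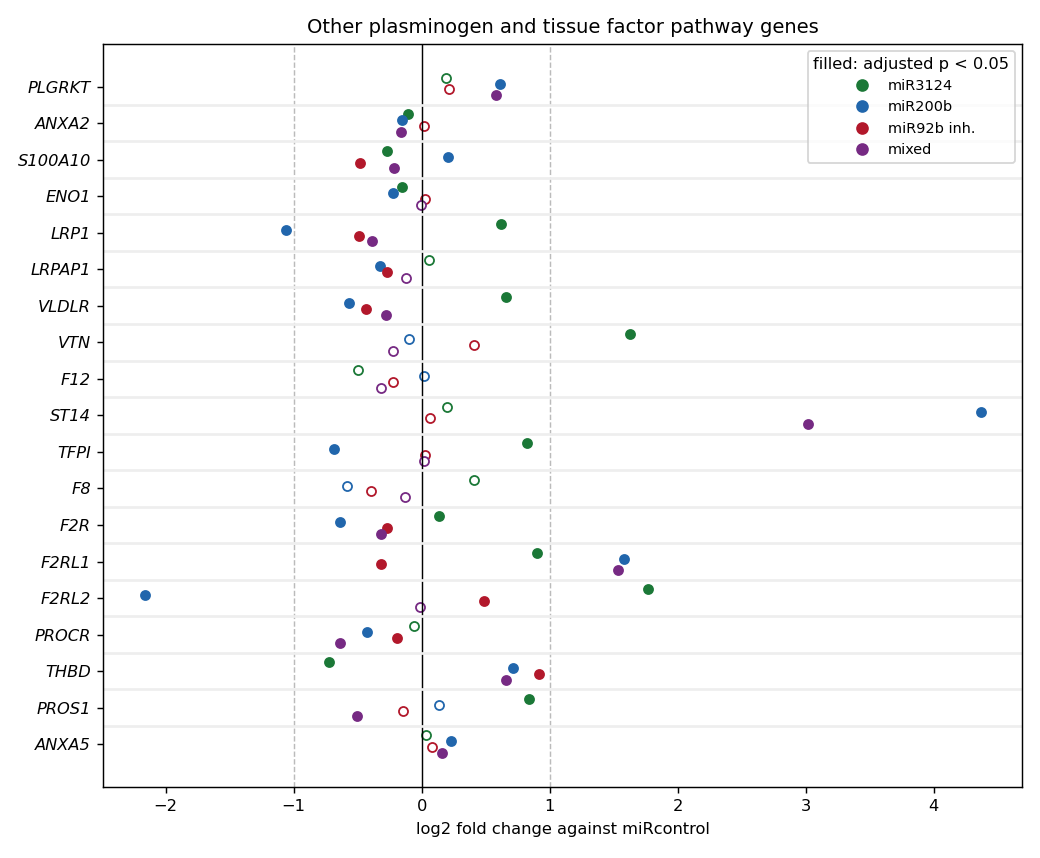
Log2 fold change against miRcontrol (horizontal axis) of 19 other genes of the plasminogen and tissue factor pathways in the other 4 groups. Filled points have an adjusted p under 0.05, dashed lines mark a fold change of 2 either way, and SERPIND1, at the floor in miRcontrol, is not drawn. ST14 lies furthest right in miR200b_mimic (4.37) and the mixed group (3.02), and F2RL2 lies at 1.77 in miR3124_mimic and -2.16 in miR200b_mimic.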

How the data were processed

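BEAS2B cells of 5 groups, 2 libraries each, were measured by mRNA-sequencing of libraries made with a directional kit. The authors trimmed the reads, mapped them with TopHat to GRCh38 per the labels, and deposited raw read counts per gene, without normalization. The annotation and the strand setting of the counting are not given in the sources used here. Each library listed 58173 rows; 5771 of them repeated a symbol and were summed. The counts as deposited (13587666 to 18503890 per library) were tested in R 4.3.3 with edgeR 4.0.16 and limma 3.58.1. Low counts were removed by filterByExpr, factors came from RLE, and the quasi-likelihood model took all 10 libraries in 1 fit without covariates (common dispersion 0.000751). P-values were adjusted by Benjamini-Hochberg over 14884 genes, a gene was called at an adjusted p of 0.05, and SE is the log2 fold change over the square root of F. Intervals are 95% intervals of the fit. The fit was tested on simulated data whose spread and share of changed genes differed from these data, so its error rates here were not measured. The chi-square per degree of freedom between the libraries of a group was 1.77 to 2.76, above counting error. It cannot tell separate transfections from repeat preparations, and both libraries were kept as samples.

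The members and gene lists were chosen with earlier results of these data known. Named were the 7 members, listed pathway genes called with a fold change of 2 or more against miRcontrol, ANXA2, S100A10 and TFPI, and the 3 genes most like each member. Alternatives were the DESeq2 1.42.0 Wald test and the exact test of edgeR, TMM factors or library totals, only the groups compared, no filter or a minimum of 10 counts in every library, a replicate block, leaving out each library, the longest transcript as gene length and all annotated 3′UTRs. Gene positions, lengths and 3′UTRs came from GENCODE 29, miRNA and promoter sequences from RefSeq (GRCh38.p14). Protein sequences were not used here. The 6-base words, the ratios of counts and the sums of single effects were added after the data were seen. The values of 1 listed pathway gene, which the list counts include, are not reported here.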

Additional observations from a re-analysis of the deposited data

How the results depend on the processing

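Of the counts of called genes recomputed under the alternatives, 368 of 374 stayed within 1.5 times the count reported, and of the members' log2 fold changes 971 of 994 kept their direction and their side of the threshold. Libraries with the same replicate number did not deviate together. Over 14884 genes, the replicate differences of any pair of groups had correlations from -0.0237 to 0.0679, and 0 pairs passed 0.1. A fit with the replicate number as a block called 4, 6, 6 and 7 members in miR3124_mimic, miR200b_mimic, miR92b_inhibitor and the mixed group, as did the fit without it.

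Leaving out 1 library moved the number of members past a fold change of 2 between 1 and 2 in miR3124_mimic, 1 and 3 in the mixed group against miRcontrol and 1 and 3 in the mixed group against miR3124_mimic, and the listed pathway genes called in miR92b_inhibitor between 6 and 10. With library totals only, the log2 fold changes of SERPINB2 and TFPI2 in miR3124_mimic turned to 0.00748 and 0.00662. Leaving out 1 library turned the sign of 9 log2 values, none of which passed the test with all libraries, and gave these ranges: SERPINB2 in miR3124_mimic -0.155 to 0.13, TFPI2 there -0.099 to 0.0422, SERPINB2 in the mixed group against miR92b_inhibitor -0.00784 to 0.21, the departures of PLAT -0.0432 to 0.139, of SERPINE2 -0.137 to 0.0198 and of TFPI2 -0.0395 to 0.218, TFPI in miR92b_inhibitor -0.00609 to 0.0607 and in the mixed group -0.0139 to 0.053, and ANXA2 in miR92b_inhibitor -0.0339 to 0.0677. Of these, SERPINB2 in the mixed group against miR92b_inhibitor passed at 0.21 (adjusted p = 0.0272). The cause was not tested. With TMM the gene most like SERPINB2 was RALA (0.9838). Among the 3 genes most like a member, USP30 then replaced PTPN14 for PLAT, FAM129B replaced BTBD10 for SERPINB2 and EEF1D replaced DCUN1D5 for F3. For TFPI2, CNOT9 and CYLD replaced PSMD12 and TATDN1. The genes named for PLAU, PLAUR and SERPINE2 stayed the same.

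Depth limits TFPI2, at 109 to 393 counts, whose intervals were the widest. With 2 libraries a group and 1 cell line, the p-values cover the spread of these libraries only.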
